A study of Mus musculus with 10 samples.

Results

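The genes described here are markers of kidney endothelium, the cells that line the glomerular capillaries, the peritubular capillaries around the tubules and the larger vessels. They are Pecam1, Cdh5, Kdr, Flt1, Emcn, Tie1, Tek, Ehd3, Plvap and Eng, taken by symbol from the deposited table of normalized counts. All 10 were found among its 13837 genes, and all 10 passed the filter on low values that left 13197 genes to be tested. Gene expression was measured in whole kidney of 3-month-old mice that were either Rragc+/+ (n = 5) or heterozygous for the knock-in allele, Rragc S74N/+ (n = 5), with 1 library per mouse and no treatment named in the labels. The point mutation was made by CRISPR editing of blastocysts, with silent changes beside the codon, and is carried in the germ line, so endothelial cells and every other cell of the kidney carried it, and no cell-specific Cre was used. Rragc encodes RagC, a small GTPase that passes nutrient signals to the kinase complex mTORC1. The labels give no strain or sex for single mice, and Ddx3y, a gene of the Y chromosome, was present in all 10 libraries at 317 to 478 normalized counts.

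Endothelium receives growth signals through receptors that few other cells make. VEGF ligands act through Kdr and Flt1, angiopoietins act through Tek, with Tie1 as a partner receptor, and BMP ligands act through complexes that include Eng. In the kidney, podocytes and tubule cells supply VEGF to the capillaries beside them. Glomerular endothelium carries open fenestrae and makes Ehd3, while peritubular endothelium closes its fenestrae with diaphragms that are built from the Plvap protein. The genes therefore cover both capillary beds as well as the vessel wall in general. In RNA from whole tissue, fewer endothelial cells and less RNA per endothelial cell cannot be told apart.

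Reads in the 13837 genes of the deposited table, recovered from the normalized counts, numbered 6501552 to 7996087 per library. The targeted gene, Rragc, lay between 244 and 347 normalized counts in Rragc+/+ kidneys and between 189 and 248 in Rragc S74N/+ kidneys (limma adjusted p = 0.0678). Reads of the 3′ method used here lie near the end of the transcript, so these counts do not check the mutated codon. The library codes form a pair of sets. Codes ending in 38 to 40 hold replicates 1 and 2 of Rragc+/+ and replicate 1 of Rragc S74N/+, and codes ending in 53 to 66 hold the other 7 mice. The labels do not say what the codes mark. Across the genome, 487 genes passed the threshold for genotype, which is an adjusted p under 0.05. That is 3.69% of the genes tested, with 1.67% higher and 2.02% lower in Rragc S74N/+ kidneys. Genotypes that did not overlap were found in 5% of genes.

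Of the 10 endothelial genes, 0 passed the threshold for genotype in limma, and 0 passed with edgeR or DESeq2 on the recovered reads. At an unadjusted limma p under 0.05 there were 2, Kdr and Plvap, against 2031 of the 13197 genes. The exact permutation test over mice was under 0.05 for 0 of the 10, and 0 had genotypes that did not overlap. The log2 fold change of Rragc S74N/+ over Rragc+/+ kidneys (log2FC, given with its standard error, SE) was below 0 for 9 of the 10. It was below 0 for 6585 of the 13197 genes tested. The median log2FC of the 10 was -0.10 against 0.00 for all genes tested. The 95% interval of every one of the 10 lay within 1 log2 unit of 0.

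**Figure D1:**
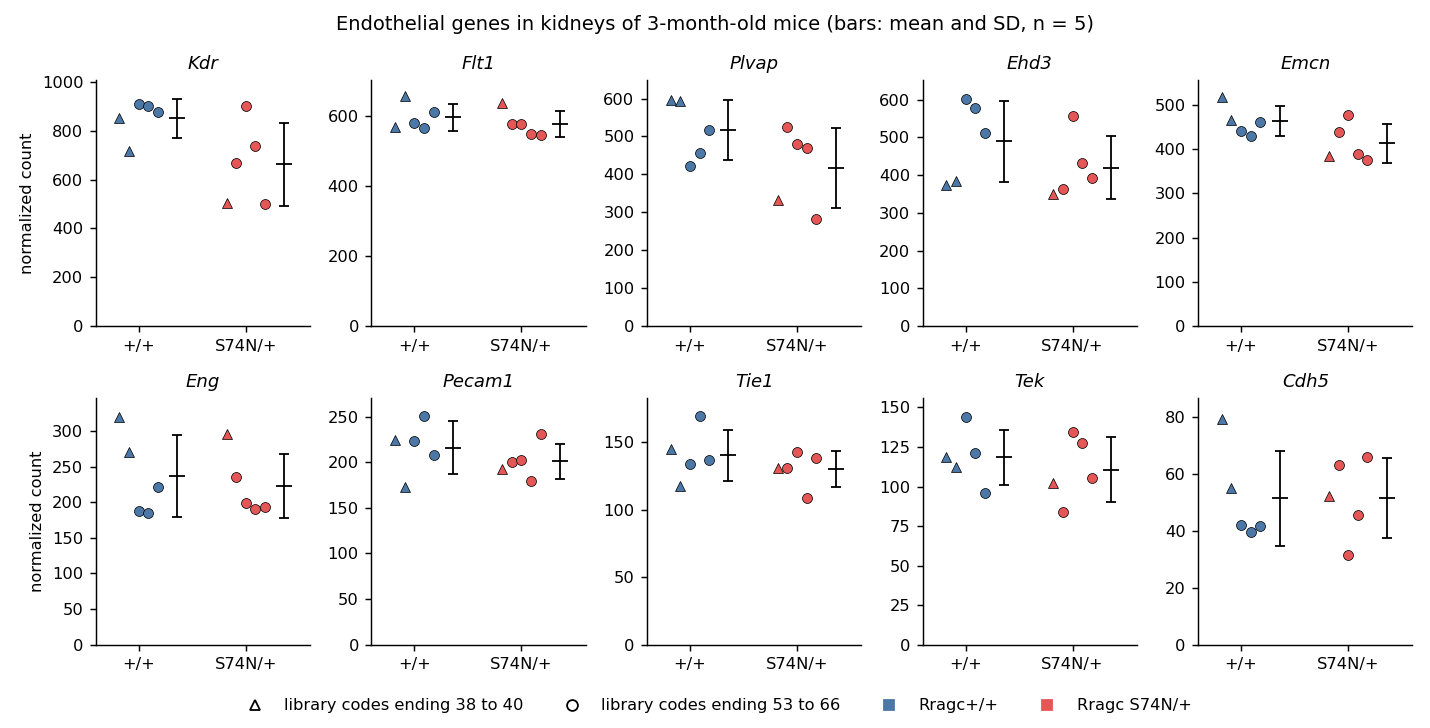
Normalized counts (y axis, from 0) of the 10 endothelial genes in each mouse, in Rragc+/+ (blue) and Rragc S74N/+ (red) kidneys, with triangles for library codes ending in 38 to 40 and circles for codes ending in 53 to 66. Bars are the mean and SD of 5 mice. The genotypes overlap for every gene, and Kdr spreads from 499 to 904 among Rragc S74N/+ mice against 717 to 911 among Rragc+/+ mice.

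Promoters were read to show the sequence context of the genes on which the results turn. RefSeq promoters of 300 bases, 250 before and 50 after the start of the gene, were matched for 7 of the 10 endothelial genes, and Pecam1, Cdh5 and Plvap had no entry. Each was searched on both strands for GGAA, the core that ETS factors bind in many endothelial genes, and for CACGTG, an E-box core bound by the TFEB family downstream of RagC. The 4 promoters below belong to Kdr, the endothelial gene with the largest genotype difference, to Eng, the gene that differed between the sets of library codes, and to the neighbours Cav2 and Cav1, which rose together. They are on GRCm38.p6, given 5′ to 3′ on the strand of the gene, with GGAA and its reverse complement in capitals.
Kdr, - strand, chr5:75978406-75978705: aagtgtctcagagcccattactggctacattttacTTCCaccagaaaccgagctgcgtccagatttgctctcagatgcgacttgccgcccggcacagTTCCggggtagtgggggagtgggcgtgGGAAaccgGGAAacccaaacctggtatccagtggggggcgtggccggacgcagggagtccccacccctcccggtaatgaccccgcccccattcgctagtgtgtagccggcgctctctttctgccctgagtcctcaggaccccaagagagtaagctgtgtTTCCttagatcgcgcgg
Eng, + strand, chr2:32646345-32646644: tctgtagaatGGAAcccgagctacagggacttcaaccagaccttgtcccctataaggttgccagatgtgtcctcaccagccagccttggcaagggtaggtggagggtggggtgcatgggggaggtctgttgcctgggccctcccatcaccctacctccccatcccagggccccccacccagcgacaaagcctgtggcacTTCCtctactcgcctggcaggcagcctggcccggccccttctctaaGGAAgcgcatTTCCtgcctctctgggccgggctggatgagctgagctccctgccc
Cav2, + strand, chr6:17280935-17281234: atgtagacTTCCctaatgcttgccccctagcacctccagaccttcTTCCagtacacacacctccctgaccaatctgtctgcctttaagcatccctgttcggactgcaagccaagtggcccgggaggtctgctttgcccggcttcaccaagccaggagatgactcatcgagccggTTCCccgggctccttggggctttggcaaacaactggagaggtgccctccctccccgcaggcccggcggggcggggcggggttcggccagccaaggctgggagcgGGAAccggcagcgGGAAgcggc
Cav1, + strand, chr6:17306085-17306384, the first of 2 promoters listed: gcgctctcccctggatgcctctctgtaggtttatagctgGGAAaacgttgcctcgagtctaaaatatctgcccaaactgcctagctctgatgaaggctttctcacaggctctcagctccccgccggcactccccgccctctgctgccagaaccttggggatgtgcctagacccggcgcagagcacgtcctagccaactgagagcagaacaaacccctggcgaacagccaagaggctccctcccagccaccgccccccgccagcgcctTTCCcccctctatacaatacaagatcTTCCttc

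The motif CACGTG was in 0 of the 7 endothelial promoters, where 7.15% of the 32851 RefSeq promoters and 9.86% of the 12659 promoters of tested genes hold it, so no match of 1 motif overlapped the other. GGAA was in all 7, from 2 matches in Tek to 9 in Tie1, with 5 in Kdr and 4 in Eng. This short motif was in 96.0% of all promoters, with a median of 3 matches, so its presence sets the endothelial promoters apart from few others. These are matches of letters in a window and not measured binding.

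The receptors for VEGF were the most abundant of the 10 genes. Kdr, also called VEGFR2, is the main signaling receptor for VEGF-A, and lies on the - strand at chr5:75932827-75978458 (GRCm38, GENCODE vM21). Its normalized counts in Rragc+/+ replicates 1 to 5 were 852, 717, 911, 904 and 878. In Rragc S74N/+ replicates 1 to 5 they were 507, 670, 904, 739 and 499. Rragc S74N/+ replicate 3 lay among the Rragc+/+ mice, replicates 1, 2 and 5 lay below all of them, and replicate 4 was above Rragc+/+ replicate 2, so the genotypes overlapped. The means were 852 ± 79.1 (SD, n = 5) and 664 ± 170 (SD, n = 5), for a log2FC of -0.39 (SE 0.14, 95% interval -0.68 to -0.10, limma adjusted p = 0.149). The exact permutation test of the counts gave p = 0.0873, against a smallest possible p of 0.00794 for 5 mice against 5.

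The call for Kdr depended on 1 mouse and on the library codes. Without Rragc S74N/+ replicate 3, Kdr passed with a log2FC of -0.51 (limma adjusted p = 0.0228). It also passed when the set of library codes was a covariate (-0.45, limma adjusted p = 0.0406), a fit in which 832 genes, or 6.3% of those tested, passed and in which Kdr was 1 of the 10 endothelial genes to do so. Among the 7 mice of the second set of codes it did not pass (-0.38, limma adjusted p = 0.232). In the other set, where Rragc S74N/+ is 1 mouse, the difference was -0.62 with no test.

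Flt1, or VEGFR1, binds VEGF-A more tightly than Kdr but signals weakly, and serves in part as a decoy. Its counts were 569, 658, 580, 565 and 612 in Rragc+/+ replicates 1 to 5 and 638, 577, 578, 549 and 546 in Rragc S74N/+ replicates 1 to 5. Its SE was the smallest of the 10 genes, with a log2FC of -0.05 (SE 0.08, limma adjusted p = 0.852). The ratio of Flt1 to Kdr was 0.709 ± 0.120 (SD, n = 5) in Rragc+/+ mice and 0.919 ± 0.255 (SD, n = 5) in the mutant, ranges of 0.625 to 0.918 and 0.640 to 1.26 that overlap.

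Among the VEGF ligands, Vegfb and Vegfd fell. They were 2 of 6 further genes of the VEGF pathway tested, of which 0 rose. That is 33.3% past the threshold against 3.69% of all genes tested, in a list drawn up with earlier results of these data known. Vegfb, a ligand of Flt1 linked to lipid handling, had counts of 432, 427, 470, 494 and 404 in Rragc+/+ replicates 1 to 5 and 326, 259, 242, 258 and 251 in Rragc S74N/+ replicates 1 to 5. Every Rragc S74N/+ mouse was below every Rragc+/+ mouse. The log2FC was -0.74 (SE 0.10, limma adjusted p = 0.000191, exact permutation p = 0.00794).

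Vegfd encodes a ligand of Flt4, the receptor of lymphatic vessels. Its counts were 82.2, 88.0, 81.6, 87.9 and 83.3 in Rragc+/+ replicates 1 to 5 and 37.0, 34.4, 54.6, 34.6 and 51.6 in Rragc S74N/+ replicates 1 to 5. The Rragc+/+ mice lay close together at 84.6 ± 3.13 (SD, n = 5), and the Rragc S74N/+ mice at 42.4 ± 9.86 (SD, n = 5) did not overlap them. The log2FC was -1.01 (SE 0.16, limma adjusted p = 0.000995). Both ligands passed whichever of the 10 mice was left out, and in all 12 other settings. Within the codes ending in 53 to 66 the log2FC was -0.84 for Vegfb (limma adjusted p = 0.000856) and -0.96 for Vegfd (limma adjusted p = 0.0283). Vegfa, the ligand on which kidney capillaries depend most, had a log2FC of -0.09 (limma adjusted p = 0.853), and the co-receptor Nrp1, the most abundant gene of the list, had 0.18 (limma adjusted p = 0.445).

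**Figure D2:**
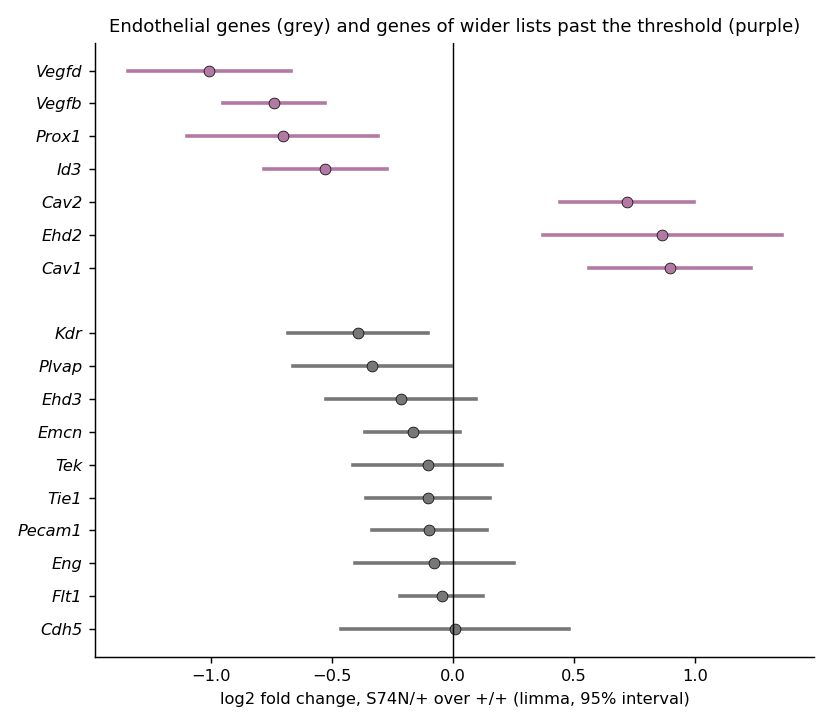
Log2 fold change of Rragc S74N/+ over Rragc+/+ kidneys (x axis, on the log2(value + 1) scale) with its 95% interval from limma, for the 10 endothelial genes in grey and for the 7 genes of the wider endothelial lists past the threshold in purple. Among the endothelial genes, the intervals of Kdr and Plvap alone exclude 0, while the purple genes reach -1.01 for Vegfd and 0.90 for Cav1.

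Tek, the receptor for angiopoietins that is also called TIE2, and Tie1, its partner, had low to middle counts. Tek ranged from 96.1 to 144 in Rragc+/+ mice and from 83.6 to 135 in Rragc S74N/+ mice, and Tie1 from 117 to 169 and from 109 to 143. The log2FCs were -0.10 for Tek (SE 0.15, limma adjusted p = 0.806) and -0.10 for Tie1 (SE 0.12, limma adjusted p = 0.764). Their ratio differed by less than the spread between mice, with 1.20 ± 0.215 (SD, n = 5) for Tie1 over Tek in Rragc+/+ kidneys against 1.21 ± 0.270 (SD, n = 5) in Rragc S74N/+ kidneys. Of 4 genes of angiopoietin ligands and TIE regulators tested, 0 passed in limma, edgeR or DESeq2. Angpt1 alone of them had an unadjusted limma p under 0.05, as had 2031 of the 13197 genes tested. Angpt1, the activating ligand of Tek, had a log2FC of -0.69 (SE 0.22, limma adjusted p = 0.101). It passed with the set of library codes as a covariate (-0.77, limma adjusted p = 0.0334) and without Rragc+/+ replicate 1 (limma adjusted p = 0.0457). Ptprb, a phosphatase that restrains Tek and the most abundant of them, had a log2FC of -0.04 (limma adjusted p = 0.938).

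Eng, or endoglin, is a co-receptor for BMP9 and BMP10 and lies on the + strand at chr2:32646595-32682669 (GRCm38). In Rragc+/+ replicates 1 to 5 its counts were 320, 271, 187, 185 and 222, and in Rragc S74N/+ replicates 1 to 5 they were 296, 235, 199, 191 and 194. The 3 highest values were those of the 3 libraries with codes ending in 38 to 40, of both genotypes, at 271 to 320 against 185 to 235 in the other 7. The log2 difference of the second set from the first was -0.56 with genotype in the fit (SE 0.11, limma adjusted p = 0.0347). Eng was 1 of the 10 endothelial genes past the threshold for the set of codes, where 121 genes, or 0.917% of those tested, passed. For genotype the log2FC was -0.08 (SE 0.16, limma adjusted p = 0.872), and it was 0.03 with the set of codes in the fit (limma adjusted p = 0.891).

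Of 9 partners of endoglin tested, Id3 fell and 0 rose, or 11.1% past the threshold against 3.69% of all genes tested. Id3, a target of BMP signaling, had a mean of 298 ± 32.1 (SD, n = 5) in Rragc+/+ mice against 208 ± 35.4 (SD, n = 5) in the mutant, for a log2FC of -0.53 (SE 0.12, limma adjusted p = 0.0176). With 1 mouse left out it passed in 8 of 10 fits, and not without Rragc+/+ replicate 4 (limma adjusted p = 0.0556) or replicate 5 (limma adjusted p = 0.0672). Among the codes ending in 53 to 66 alone it did not pass (-0.49, limma adjusted p = 0.128). Id1, a target of the same signal, had a log2FC of -0.03 (limma adjusted p = 0.966), and the receptor Bmpr2, the most abundant gene of the list, had 0.02 (limma adjusted p = 0.954).

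The genes of endothelial junctions and of the cell surface, Pecam1, Cdh5 and Emcn, did not pass. Pecam1, an adhesion molecule at contacts between endothelial cells, ranged from 173 to 251 in Rragc+/+ mice and from 179 to 231 in Rragc S74N/+ mice, with a log2FC of -0.10 (SE 0.11, limma adjusted p = 0.759). Cdh5, or VE-cadherin, the main adherens junction protein of endothelium, was the least abundant of the 10 genes, with 30 to 87 reads per library. Its means were 51.6 ± 16.7 (SD, n = 5) and 51.7 ± 14.0 (SD, n = 5), and the 95% interval of the log2FC ran from -0.46 to 0.48 (limma adjusted p = 0.992).

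Emcn encodes endomucin, a sialomucin of capillary and venous endothelium. Its counts in Rragc+/+ replicates 1 to 5 were 518, 465, 440.0, 429.9 and 460.2, and in Rragc S74N/+ replicates 1 to 5 they were 385, 439, 477, 388 and 375. Replicates 1, 4 and 5 of Rragc S74N/+ were below all Rragc+/+ mice, and replicates 2 and 3 were among them. The log2FC was -0.17 (SE 0.09, limma adjusted p = 0.430, exact permutation p = 0.0873).

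Ehd3 and Plvap stand for the glomerular and the peritubular capillaries. Ehd3, a membrane-shaping ATPase of the EHD family, had counts of 372, 383, 602, 577 and 510.4 in Rragc+/+ replicates 1 to 5 and 351, 364, 557, 432 and 392 in Rragc S74N/+ replicates 1 to 5. The values of the genotypes overlapped, and the 3 libraries with codes ending in 38 to 40 lay together at 351 to 383. The log2FC for genotype was -0.21 (SE 0.15, limma adjusted p = 0.553), and that for the set of codes was 0.46 without passing (SE 0.12, limma adjusted p = 0.0763). With the set of codes in the fit, the log2FC for genotype was larger at -0.31 but did not pass (SE 0.11, limma adjusted p = 0.125). Among the mice of the second set of codes alone it was -0.38 (limma adjusted p = 0.174). Within the codes ending in 38 to 40 it was -0.11 with no test.

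Plvap had counts of 597, 593, 421, 457 and 518 in Rragc+/+ replicates 1 to 5 and 332, 525, 480.3, 468 and 281 in Rragc S74N/+ replicates 1 to 5. Rragc S74N/+ replicates 1 and 5 were below all other mice, and the other 3 lay inside the Rragc+/+ range. The log2FC was -0.33 (SE 0.15, 95% interval -0.66 to -0.01, limma adjusted p = 0.306, exact permutation p = 0.143). Within the codes ending in 53 to 66 it was -0.12 (limma adjusted p = 0.799), and within the other set -0.84 with no test. The ratio of Ehd3 to Plvap was 0.990 ± 0.361 (SD, n = 5) in Rragc+/+ mice against 1.05 ± 0.262 (SD, n = 5) in the mutant, and the spread between mice was larger than this difference.

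**Figure D3:**
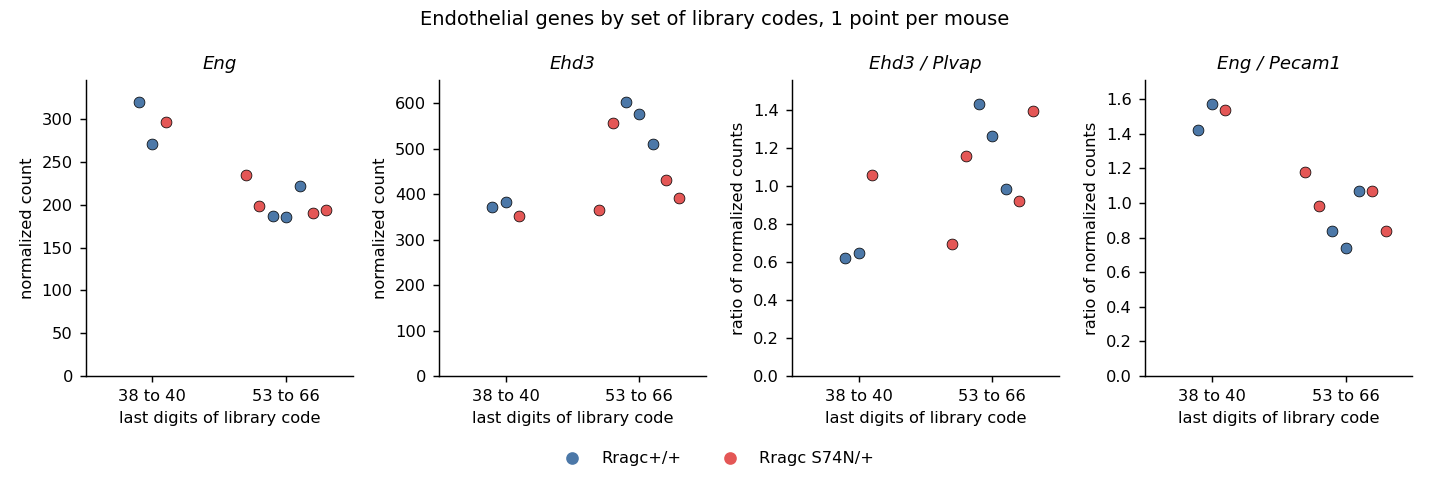
Normalized counts of Eng and Ehd3 and the ratios Ehd3 over Plvap and Eng over Pecam1 (y axes, from 0), 1 point per mouse, by the last digits of the library code (x axis), with Rragc+/+ in blue and Rragc S74N/+ in red. Eng and its ratio to Pecam1 separate the sets of codes (1.42 to 1.57 against 0.739 to 1.18), while Rragc+/+ and Rragc S74N/+ mice mix within each set.

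In the list of caveolae and EHD genes, to which Ehd3 is related, 3 genes rose. Caveolae are small pits of the plasma membrane that are dense in endothelium and also occur in smooth muscle and fibroblasts. Of 8 genes tested, Cav1, Cav2 and Ehd2 rose and 0 fell. That is 37.5% past the threshold against 3.69% of all genes tested, in a list drawn up with earlier results of these data known. Cav1, the protein that forms the caveolar coat, had counts of 94.0, 96.9, 65.8, 86.8 and 74.7 in Rragc+/+ replicates 1 to 5 and 182, 154, 105, 163 and 187 in Rragc S74N/+ replicates 1 to 5. Its partner Cav2 had 219, 161, 157, 138 and 139 in Rragc+/+ and 300, 243, 252.2, 232 and 305 in Rragc S74N/+ replicates 1 to 5. For both genes every Rragc S74N/+ mouse was above every Rragc+/+ mouse. The summed counts of 9 genes of mesangial cells, pericytes and smooth muscle were also higher in Rragc S74N/+ kidneys. They were 1346 to 1924 against 1063 to 1196, without overlap. Ren1, the most abundant of the 9 and the one that weighs most in the sum, was the 1 gene past the threshold. Of the 9, 3 had a lower mean. The part of these cells in the values of Cav1, Cav2 and Ehd2 was not tested.

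The log2FC was 0.90 for Cav1 (SE 0.16, limma adjusted p = 0.00255) and 0.72 for Cav2 (SE 0.13, limma adjusted p = 0.00313). Both passed whichever of the 10 mice was left out, and in all 12 other settings. Among the 7 mice with codes ending in 53 to 66 they were 0.98 for Cav1 (limma adjusted p = 0.0163) and 0.83 for Cav2 (limma adjusted p = 0.00374). The 2 genes are neighbours on the + strand of chromosome 6, at 17281185 to 17289115 for Cav2 and 17306335 to 17341452 for Cav1 (GRCm38), and their promoters shown above held 5 and 3 GGAA matches and 0 CACGTG matches. Ehd2, which binds the neck of caveolae, had means of 53.6 ± 21.4 (SD, n = 5) and 94.2 ± 21.7 (SD, n = 5), a log2FC of 0.87 (SE 0.23, limma adjusted p = 0.0480). With 1 mouse left out, Ehd2 passed in 2 of 10 fits, with adjusted p between 0.0201 and 0.139 in limma, and within the codes ending in 53 to 66 its log2FC was 1.18 (limma adjusted p = 0.0108).

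The coat gene Cavin1 and the endothelial Cavin2 did not follow Cav1 past the threshold, with log2FCs of 0.33 (limma adjusted p = 0.287) and -0.28 (limma adjusted p = 0.136). Ehd1, the most abundant gene of this list and the nearest relative of Ehd3, had 0.10 (limma adjusted p = 0.607), and Ehd4 had -0.15 (limma adjusted p = 0.625).

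**Figure D4:**
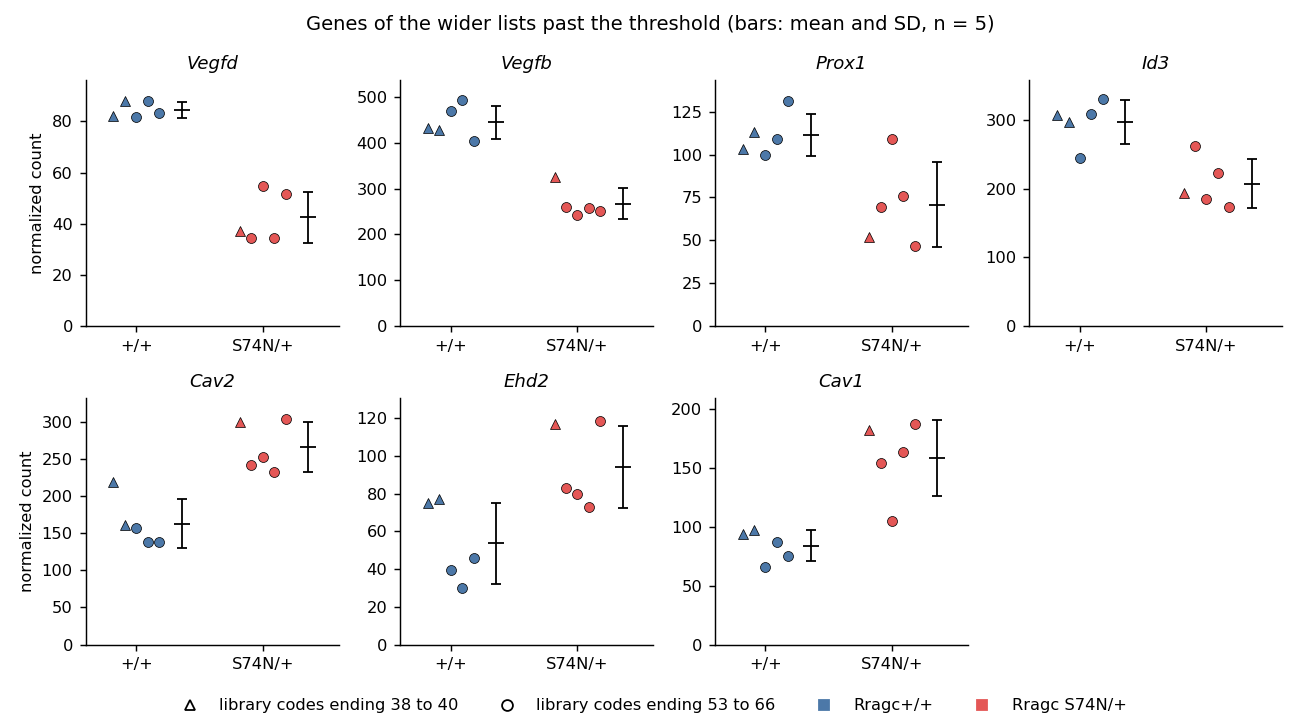
Normalized counts (y axis, from 0) in each mouse of the 7 genes of the wider endothelial lists that passed the threshold, Rragc+/+ in blue and Rragc S74N/+ in red, with triangles for library codes ending in 38 to 40 and circles for codes ending in 53 to 66. Bars are the mean and SD of 5 mice. Vegfd, Vegfb, Cav2 and Cav1 do not overlap between genotypes, while Prox1, Id3 and Ehd2 do.

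Other genes of endothelium in general did not pass. Of 20 further pan-endothelial genes tested, 0 passed in limma, edgeR or DESeq2. An unadjusted limma p under 0.05 was found for 2 of the 20, against 2031 of the 13197 genes tested. Means were lower for 13 and higher for 7 of them in the mutant, and the median log2FC was -0.06. The most abundant was Esam, an adhesion molecule of tight junctions, with 0.08 (limma adjusted p = 0.789). The sums of the list were 2587 to 2977 normalized counts in Rragc+/+ and 2584 to 2863 in Rragc S74N/+ mice, so the genotypes overlapped.

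Genes of single vessel types gave 1 call. Of 3 glomerular endothelial genes, 5 peritubular and venous genes and 7 arterial genes tested, 0 passed in limma and edgeR, while DESeq2 called Gas6 in the peritubular list (DESeq2 adjusted p = 0.0495) and Fbln5 in the arterial list (DESeq2 adjusted p = 0.0268). In limma their log2FCs were -0.61 (limma adjusted p = 0.0764) and -0.47 (limma adjusted p = 0.0573). At an unadjusted limma p under 0.05 there were 0, 2 and 3 in these lists, against 2031 of the 13197 genes tested. Their most abundant genes were Lpl, the lipoprotein lipase, at a log2FC of -0.20 (limma adjusted p = 0.655), Nr2f2, a regulator of venous identity, at -0.00094 (limma adjusted p = 0.998), and the chemokine Cxcl12 at 0.05 (limma adjusted p = 0.849). All are also made by other kidney cells. Gja4, a connexin of arterial endothelium, was the 1 gene of these lists whose genotypes did not overlap. Its normalized counts were 14.2 to 22.8 in Rragc+/+ and 24.7 to 33.1 in Rragc S74N/+ mice. Genotypes did not overlap in 5% of all genes tested, so 1 such gene in these lists is near that share. Gja4 had a log2FC of 0.67 (SE 0.21, limma adjusted p = 0.0881). Its exact permutation p of 0.00794 is the smallest possible and follows from the lack of overlap. It passed in 1 of the 11 other settings that tested it, without the trend (limma adjusted p = 0.0266). Of 5 lymphatic genes tested, 1, Prox1, passed, or 20% against 3.69% of all genes tested. The list was drawn up with earlier results of these data known. An unadjusted limma p under 0.05 was found for 3 of the 5, against 2031 of the 13197 genes tested. In edgeR 0 of the 5 passed (Prox1 edgeR adjusted p = 0.0553), while DESeq2 called Prox1 (DESeq2 adjusted p = 0.0243). Prox1 fell from 111 ± 12.3 (SD, n = 5) to 70.8 ± 24.7 (SD, n = 5), a log2FC of -0.70 (SE 0.19, limma adjusted p = 0.0455). Which kidney cells its counts came from was not tested. Prox1, which sets lymphatic identity, passed in 1 of 10 fits with a mouse left out, with limma adjusted p up to 0.137, and did not pass within the codes ending in 53 to 66 (-0.64, limma adjusted p = 0.197). Pdpn, the most abundant of the list, had -0.17 (limma adjusted p = 0.685).

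Of 9 genes of endothelial activation and vasoactive function tested, 0 passed in limma, edgeR or DESeq2, and 0 had an unadjusted limma p under 0.05. The most abundant, Ece1, which makes active endothelin, had a log2FC of -0.27 (limma adjusted p = 0.480). Taking each gene once, since Flt4 and Ptprb stand in 2 lists each, 78 of the 93 listed genes were in the table and 74 were tested. Of these 7 passed, 3 higher and 4 lower, or 9.46% against 3.69% of all genes, in lists that were drawn up with earlier results of these data known. edgeR called 5 and DESeq2 9 of the 74, and with the set of library codes as a covariate limma called 8.

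A 3′ count does not grow with transcript length, but other differences between genes in how reads are captured and assigned were not checked. The order given here is therefore one of counts, and not of measured transcript levels. Over the 10 mice Kdr was highest at 758 normalized counts, followed by Flt1 at 587, Plvap at 467, Ehd3 at 454, Emcn at 438, Eng at 230, Pecam1 at 208, Tie1 at 135, Tek at 115 and Cdh5 at 51.6. Plvap was above Ehd3 in 5 of 10 mice, Ehd3 above Emcn in 6 and Eng above Pecam1 in 6, so these neighbours did not differ beyond their spread. Emcn was above Eng, Pecam1 above Tie1 and Tek above Cdh5 in 10 of 10 mice.

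Together the 10 genes summed to 3795, 3545, 3683, 3698 and 3682 normalized counts in Rragc+/+ replicates 1 to 5 and to 2987, 3288, 3706, 3228 and 2827 in Rragc S74N/+ replicates 1 to 5. Replicate 3 of Rragc S74N/+ lay inside the Rragc+/+ range, and the other 4 lay below it. The abundant genes weigh most in this sum. Kdr, the most abundant, had means of 852 in Rragc+/+ and 664 in Rragc S74N/+ mice. Flt1, the next, had 597 and 578, and Cdh5, the least abundant, had 51.6 and 51.7. The SD between mice was 335 in Rragc S74N/+ and 89.1 in Rragc+/+ kidneys. Each of the 10 genes had its highest value in a Rragc+/+ mouse, and Rragc S74N/+ replicate 5 had the lowest value of 4 of them. How often this holds among all genes tested was not counted. Once genotype means were subtracted, the median Pearson r over their 45 pairs was 0.005 across the 10 mice, with 23 pairs above 0. The pairs ran from -0.87 for Cdh5 with Ehd3 to 0.87 for Pecam1 with Tie1, values that share a library and its normalization and are given as a description.

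Measured in the same way, the 10 genes outside the list whose values followed the mean z-score of the endothelial genes most closely were Pofut1, BC029722, Cyb5b, Tpgs2, Orc2, Armc1, Hoxd10, Lrrc3, Gdi2 and Rab10os. Their r was 0.887 to 0.943 over the 10 mice, and 0 of them stand in the endothelial lists used here. They head a ranking of all other tested genes over 10 mice, where high values can arise with no link. The endothelial genes themselves had a median r of 0.005 between pairs. These genes are given as a description and no link to endothelium was tested.

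Genes that mark other kidney cells also differed, and their part in the endothelial values was not tested. The sums of 7 podocyte genes were 713 to 857 normalized counts in Rragc+/+ and 870 to 1060 in Rragc S74N/+ mice, with 5 genes of higher and 2 of lower mean and Synpo past the threshold (0.52, limma adjusted p = 0.0261). The sums of 9 genes of mesangial cells, pericytes and smooth muscle were 1063 to 1196 and 1346 to 1924, with 6 of higher and 3 of lower mean and Ren1, the renin gene, past the threshold (1.09, limma adjusted p = 0.00106). Neither sum overlapped between genotypes, and the abundant genes weigh most in such a sum. Among genes of lower mean, Nphs1 of the podocyte list had -0.24 (limma adjusted p = 0.700) and Pdgfrb of the other list -0.16 (limma adjusted p = 0.711). The sums of 7 proximal tubule genes overlapped, at 46961 to 52551 and 50385 to 59660, with Slc5a2 and Slc5a12 lower and Slc13a3 higher past the threshold. In the podocyte, mesangial and proximal tubule lists 14.3%, 11.1% and 42.9% passed, against 3.69% of all genes tested.

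Blood cells were present in all kidneys. The sums of 8 erythrocyte and platelet genes were 23439 to 30830 normalized counts in Rragc+/+ and 18905 to 25145 in Rragc S74N/+ mice, which overlap. Hba-a1 passed (-0.60, limma adjusted p = 0.0477), but has a near-identical copy in Hba-a2, so its reads are uncertain. The sums of 5 leukocyte genes were 240 to 265 and 214 to 372, and 0 of the 5 passed in limma, edgeR or DESeq2. An unadjusted limma p under 0.05 was found for 1 of the 5, against 2031 of the 13197 genes tested. Of the lists for other cells, the most abundant genes were Synpo, Ren1, Slc34a1, Ptprc and Hbb-bs, none of them at 0 in any library.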

How the data were processed

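The authors made QuantSeq 3′ libraries, aligned reads to GRCm39 with TopHat2 2.0.10, Bowtie 1.0.0 and SAMtools 0.1.19 after FastQC 0.11.7, used HTSeq 0.6.1 with strand to count them on GENCODE vM26 genes, tested genes with DESeq2, and deposited read counts over size factors, a normalized signal for every gene in each library. Size factors were recovered by taking the smallest value above 0 in each library as a single read, and ran from 0.8818 to 1.124. All values came out as whole reads within 0.01 reads once multiplied by them. Genes with a mean under 5.64 were not analysed here. Depth sets the precision of low counts, and intervals cover counting error and the spread between mice together.

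The normalized values of the authors were kept. log2(value + 1) was tested with limma 3.58.1 in R 4.3.3 (trend, two-sided) in genes with at least 10 normalized counts in at least 5 mice. Benjamini-Hochberg adjustment ran over all genes tested, with a threshold of 0.05. Changes of low genes are understated on this scale. Exact permutation tests were two-sided over all splits of the mice (scipy 1.17.1). Sums, ratios and figures used python 3.11.15, pandas 2.3.3, numpy 2.4.6 and matplotlib 3.10.9. Alternatives were pseudocounts of 0.5 and 5, no filter, a mean of at least 50, TMM, quantile normalization, no trend, robust variances, edgeR 4.0.16, DESeq2 1.42.0, a covariate for the set of library codes, the second set alone and leaving out each mouse. The fits were tested on simulated data. The coefficient for the set of codes and the differences within the first set were chosen after seeing the data.

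Named genes were all 10 endothelial genes, each gene of the wider lists past the threshold, the most abundant one not past it in each list, and the 10 genes most like the endothelial score. Vegfa, Angpt1, Id1, Gas6, Fbln5, Gja4, Nphs1, Pdgfrb, Cavin1, Cavin2, Ehd4 and the genes of other cells past the threshold were named after their values were seen. Endothelial genes and lists were chosen with earlier results of these data known. Coordinates are GRCm38 (GENCODE vM21, RefSeq), another build than that of the values, and were not converted. Groups came from the genotype labels. Each library is 1 mouse.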

Additional observations from a re-analysis of the deposited data

Results flagged for a closer look

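In 34 groups of 5 mice, which are both genotypes for the 10 endothelial genes and the 7 further genes past the threshold, a mouse stood apart from the other 4 of its group in 2. Chance alone sets a mouse apart in about 1 in 20 groups. Cav2 was 219.08 normalized counts in Rragc+/+ replicate 1 against 138 to 161 in the other Rragc+/+ mice, a gap of 0.719 of the range of the group. That value was the nearest of the Rragc+/+ mice to the Rragc S74N/+ range, and without that mouse Cav2 still passed. Vegfb was 326.29 in Rragc S74N/+ replicate 1 against 242 to 259 in the other Rragc S74N/+ mice, a gap of 0.793 of the range, and also still passed without that mouse. Both libraries have codes ending in 38 to 40.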

How the results depend on the processing

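The number of genes past the threshold was 487, and it was 291 without the trend, 832 with the set of library codes as a covariate, 480 with edgeR and 648 with DESeq2. Leaving out each mouse gave 295 to 466, lowest without Rragc+/+ replicate 5 (295) and replicate 4 (310). Of the endothelial genes, 0 passed under 11 of the 12 alternatives and 1, Kdr, with the covariate, and leaving out each mouse gave 0 to 1. The direction of Cdh5 turned with DESeq2 (-0.0016) and edgeR (-0.0087) and ranged from -0.090 to 0.17 as each mouse was left out. That of Eng turned with the covariate (0.034) and within the codes ending in 53 to 66 (0.045), and ranged from -0.18 to 0.038. The cause was not tested. The other 8 endothelial genes kept their direction in all of these fits. Of the 74 wider genes, 7 passed, and leaving out each mouse gave 4 to 7, lowest without Rragc+/+ replicate 4 or 5. Vegfb, Vegfd, Cav1 and Cav2 passed throughout. Ehd2, Id3 and Prox1 passed in 7, 10 and 8 of the 12 alternatives. No paired analysis was possible because the replicate numbers were given in accession order and pair no mice. Cdh5 had the fewest reads of the 10 endothelial genes, at 30 to 87 per library.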
